A study of Homo sapiens with 16 samples.

Results

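The 34 genes described here make and handle cholesterol and fatty acids. They were chosen by name: every row of the deposited count tables whose symbol was on a list of SREBP factors and their regulators (5 genes), sterol synthesis enzymes (18 genes), sterol uptake and transport genes (2 genes) and genes of fatty acid and glycerolipid synthesis (9 genes). The list was made with earlier results of these data known. All 34 were found among the 26485 gene symbols of the tables. Polyadenylated RNA had been sequenced from SW620 and SW480, established human colon cancer lines taken from a lymph node metastasis and a primary tumour of the same donor, both known for a truncated APC and high Wnt signalling. Each line carried either dnLEF1, a dominant negative LEF1 that blocks Wnt output (labelled Wnt low), or GFP as the mock control (labelled Wnt high). The 4 groups, SW620 dnLEF1, SW620 GFP, SW480 dnLEF1 and SW480 GFP, held 4 libraries each, all at passage 6 in DMEM. The comparisons ask how blocking Wnt output changes these genes within each line. Which promoter drives the constructs, and whether each line is a clone or a pool, the labels do not say. Nor do the labels tie the libraries of a group to separate cultures, so the p-values reflect spread between the samples at hand, and that spread may be technical.

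Cells hold their sterol level through SREBP, a transcription factor made as a membrane protein of the endoplasmic reticulum. When sterols are scarce, SCAP escorts SREBP to the Golgi, where proteases release its active part. When sterols are plentiful, INSIG proteins hold SCAP and SREBP back. The SREBP2 form (gene SREBF2) is best known for cholesterol synthesis and uptake genes, and SREBP1 (gene SREBF1) for fatty acid synthesis genes. INSIG1 and SREBF2 are themselves SREBP targets.

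Each library held between 17181204 and 26153506 gene counts, and 55233 to 99856 of them fell on the 34 genes (0.317% to 0.459%). Levels are given as CPM, counts scaled to library size on the TMM scale of all 16 libraries. LEF1 had 25.6, 20.1, 23.2 and 24.2 CPM in SW620 dnLEF1 libraries, against 3.63, 3.92, 2.82 and 3.08 CPM in SW620 GFP libraries (log2 fold change 2.79 ± 0.12, adjusted p = 7.94e-09). LEF1 had 273, 271, 269 and 173 CPM in SW480 dnLEF1 libraries, against 52.6, 52.3, 48.8 and 52.9 CPM in SW480 GFP libraries (log2 fold change 2.26 ± 0.12, adjusted p = 2.37e-09). Gene counts do not separate the construct from the cells' own LEF1. Every dnLEF1 library lay above every GFP library of its line, though SW480 dnLEF1 replicate 4 carried less LEF1 than the other 3 of its group. In the counting output of SW620 GFP replicate 3, 39.4% of the total aligned to more than 1 place, against 7.61% to 9.46% in the other libraries. Those reads are not in the gene counts. Both lines had high levels of the epithelial genes EPCAM, KRT8, KRT18 and KRT19, but of the intestinal markers KRT20 and CDX1 were at or near 0. VIL1 averaged 303 CPM in SW620 dnLEF1, 365 in SW620 GFP, 2.43 in SW480 dnLEF1 and 34.96 in SW480 GFP, and CDX2 averaged 8.83, 6.62, 0.131 and 12.2 CPM in those groups. The summed CPM of 8 epithelial markers was 8504.5 to 10811 in SW620 dnLEF1 and 9876.3 to 12181 in SW620 GFP. In SW480 it was 7045.3 to 8481.5 in dnLEF1 libraries and 10714 to 12468 in GFP libraries, and all 6 epithelial markers tested there fell. Leukocyte markers summed to 5.97 to 6.998 CPM in SW620 dnLEF1, 4.74 to 5.76 in SW620 GFP, 8.59 to 11.3 in SW480 dnLEF1 and 4.90 to 6.25 in SW480 GFP, with MS4A1 and TYROBP at 0 throughout. Fibroblast markers summed to 29.2 to 32.6, 22.3 to 34.3, 14.9 to 38.01 and 8.89 to 17.6 CPM in the same order of groups. Most of that came from LUM in SW620 and from COL1A1 in SW480 dnLEF1, where LUM was at 0. Endothelial sums stayed at or below 3.79 CPM, adipocyte sums at or below 0.670 and hepatocyte sums at or below 0.547. The part of these marker shifts in the results below was not tested, and in bulk RNA fewer cells with a transcript and less of it per cell cannot be told apart.

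Promoters were examined because the 34 genes share a set of known regulators. RefSeq's promoter table (GRCh38.p14) held 30 of the 34 genes, and its 250 bases before each start were searched on both strands for 6 words. The word CCAAT, bound by NF-Y, a partner of SREBP on many sterol promoters, stood in 12 of 15 sterol synthesis promoters (80.0%), in 19 of all 30 (63.3%) and in 33.0% of 27305 promoters in the table. The sterol regulatory element TCACCCCAC stood in 1 of 30, that of SREBF2, and in 0.348% of all promoters; its looser form TCACNCCAC, which includes the same match, gave the same 1 of 30 against 0.875%. The E-box CACGTG stood in 3 of 30, those of SCAP, INSIG1 and SC5D, against 6.49% of all. The TCF/LEF words CTTTGAT and CTTTGTT stood in 0 of the 30, against 2.28% and 4.54% of all. At rates this low, 0 among 30 promoters does not show a lack of these words. A match is a description of the letters only, and ACAT2, FDFT1, SQLE and FASN had no entry. Shown are the 200 bases before the start, 5′ to 3′ on the gene's strand, of 8 genes. SREBF2 holds the sterol regulatory element and was not called for dnLEF1 by the edgeR fit of either line. INSIG1 is its regulator. The others are 3 enzymes that fell in SW620, a pair that rose in SW480 and a sterol carrier that fell in both. RefSeq's starts can differ from the GENCODE gene ends given further on. Capitals mark TCACCCCAC and CCAAT or its reverse complement ATTGG. They lie on GRCh38.p14 as follows: SREBF2 at chr22:41832905-41833104 (plus strand), INSIG1 at chr7:155297678-155297877 (plus strand), HMGCS1 at chr5:43313413-43313612 (minus strand), DHCR7 at chr11:71448394-71448593 (minus strand), MSMO1 at chr4:165327469-165327668 (plus strand), MVD at chr16:88663092-88663291 (minus strand), LSS at chr21:46228775-46228974 (minus strand) and STARD4 at chr5:111512536-111512735 (minus strand).
SREBF2: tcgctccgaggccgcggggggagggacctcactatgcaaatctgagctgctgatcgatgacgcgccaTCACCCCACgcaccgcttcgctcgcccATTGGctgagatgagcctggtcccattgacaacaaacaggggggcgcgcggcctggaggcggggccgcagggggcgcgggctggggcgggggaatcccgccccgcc
INSIG1: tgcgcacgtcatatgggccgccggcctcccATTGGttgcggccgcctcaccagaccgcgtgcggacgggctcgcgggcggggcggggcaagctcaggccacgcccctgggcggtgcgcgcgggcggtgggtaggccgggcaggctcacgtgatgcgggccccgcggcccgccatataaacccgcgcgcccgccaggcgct
HMGCS1: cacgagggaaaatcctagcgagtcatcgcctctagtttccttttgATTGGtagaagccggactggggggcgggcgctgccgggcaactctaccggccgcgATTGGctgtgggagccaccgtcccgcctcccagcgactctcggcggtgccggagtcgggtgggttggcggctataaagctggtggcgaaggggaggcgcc
DHCR7: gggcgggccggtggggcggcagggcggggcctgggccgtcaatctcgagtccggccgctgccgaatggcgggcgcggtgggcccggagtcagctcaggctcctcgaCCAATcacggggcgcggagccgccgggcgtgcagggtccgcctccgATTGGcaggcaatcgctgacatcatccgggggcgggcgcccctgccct
MSMO1: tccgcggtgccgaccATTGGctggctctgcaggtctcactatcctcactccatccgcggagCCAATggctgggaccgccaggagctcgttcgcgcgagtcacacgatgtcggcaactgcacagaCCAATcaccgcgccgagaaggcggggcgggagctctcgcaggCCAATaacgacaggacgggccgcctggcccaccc
MVD: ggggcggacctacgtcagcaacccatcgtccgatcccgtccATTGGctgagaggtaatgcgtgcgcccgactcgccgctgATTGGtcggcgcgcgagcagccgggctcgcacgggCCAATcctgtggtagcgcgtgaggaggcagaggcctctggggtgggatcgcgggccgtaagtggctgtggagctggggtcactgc
LSS: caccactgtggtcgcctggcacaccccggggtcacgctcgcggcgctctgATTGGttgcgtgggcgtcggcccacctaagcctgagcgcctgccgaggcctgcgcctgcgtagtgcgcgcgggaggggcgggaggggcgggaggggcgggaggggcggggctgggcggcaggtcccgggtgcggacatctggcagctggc
STARD4: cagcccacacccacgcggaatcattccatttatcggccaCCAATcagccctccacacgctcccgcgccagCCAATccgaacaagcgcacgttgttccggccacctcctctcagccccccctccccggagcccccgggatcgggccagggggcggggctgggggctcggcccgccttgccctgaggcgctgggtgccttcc
HMGCS1 held ATTGG at 155 and 100 bases before its start, DHCR7 held CCAAT at 94 and ATTGG at 48, and MSMO1 held 4 matches between 185 and 34 bases before its start.

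Several sterol and fatty acid synthesis genes were lower with dnLEF1 in SW620, and several sterol synthesis and SREBP genes were higher with it in SW480. In SW620, 10 of the 34 genes fell and 0 rose, where 2.43% of 13336 genes tested fell and 6.03% rose (edgeR, Benjamini-Hochberg adjusted p below 0.05). The count of genes that fell was 4 in a fit of all 16 libraries, 14 by DESeq2 and 11 by limma voom. The shares of all genes called in those fits are not given here. DESeq2 and limma voom also called 0 higher, and 0 were higher at an unadjusted p below 0.05, a rule whose share of all genes is not given either. In SW480, 13 of 33 rose and 2 fell, where 24.2% of 14426 genes rose and 24.4% fell. NPC1L1 was too low to test there. The median log2 fold change of the genes was -0.21 in SW620 and 0.23 in SW480, beside -0.00 over all genes in each line. Of 33 genes tested in both lines, 27 had a negative fold change in SW620 and a positive one in SW480. Some of these were near 0 in SW480, and the share of all genes with such signs is not given here. Only 2 genes, ACAT2 and MSMO1, were called in both lines in those directions. The changes were modest: the largest fall in SW620 was 1.52-fold (HMGCS1) and the largest rise in SW480 was 1.61-fold (MVD).

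**Figure D1:**
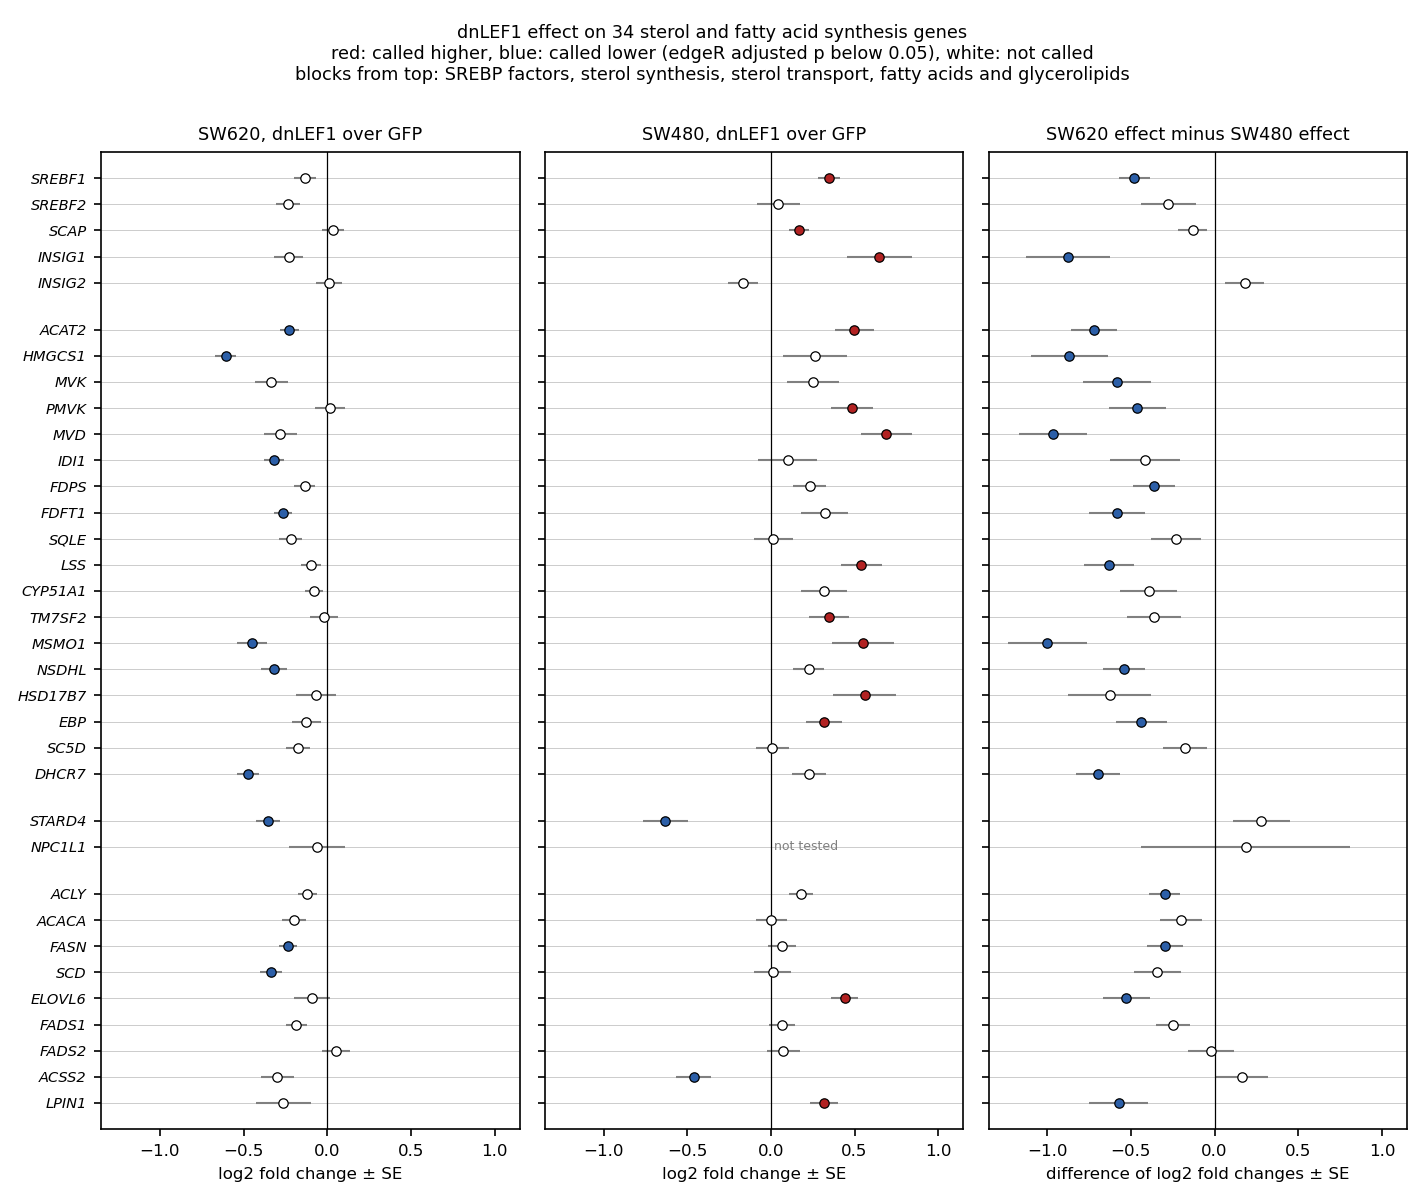
Log2 fold changes of dnLEF1 over GFP (points, ± SE) for the 34 genes in SW620 (left) and SW480 (middle), and the difference between the lines (right), with called genes filled red (higher) or blue (lower). Filled points lie left of 0 in SW620 for 10 genes, while in SW480 all 18 sterol synthesis genes lie right of 0.

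Of the factors themselves, the edgeR fit of each line called none in SW620 (beside 8.46% of all genes). In SW480, 3 of 5 rose (60%, beside 24.2% of all genes). SREBF1 (chr17:17810399-17837002, minus strand, GENCODE 44 on hg38), which encodes SREBP1, had 75.3, 89.5, 81.8 and 90.9 CPM in dnLEF1 libraries, against 92.3, 90.3, 88.2 and 98.996 CPM in GFP libraries, and the groups overlapped (log2 fold change -0.13 ± 0.07, adjusted p = 0.309; here and below the error of a fold change is its SE). In SW480 it rose: 70.8, 78.2, 74.4 and 81.4 CPM in dnLEF1 libraries, against 57.4, 59.3, 60.7 and 62.5 CPM in GFP libraries, with no overlap (log2 fold change 0.35 ± 0.07, adjusted p = 0.000562). SREBF2 (chr22:41833105-41907306, plus strand), which encodes SREBP2, had 115, 138, 147 and 148 CPM in dnLEF1 libraries, against 159, 161, 155 and 169.6 CPM in GFP libraries. All 4 dnLEF1 libraries lay below all 4 GFP libraries, but the test was missed (log2 fold change -0.23 ± 0.07, adjusted p = 0.0699). SREBF2 was called lower in SW620 by DESeq2 (adjusted p = 0.0289) and by edgeR with no filter on low counts (adjusted p = 0.0470), but not by limma voom. In SW480 its libraries overlapped widely, with 111, 147, 141 and 150.3 CPM in dnLEF1 libraries, against 97.6, 143, 134 and 159 CPM in GFP libraries (log2 fold change 0.04 ± 0.13, adjusted p = 0.797).

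INSIG1 (chr7:155297776-155310235, plus strand), the sterol-responsive member of the retention pair, rose in SW480. INSIG1 had 71.2, 107, 107 and 128 CPM in SW480 dnLEF1 libraries, against 38.9, 73.6, 71.9 and 79.6 CPM in SW480 GFP libraries. Replicate 1 of either group was the lowest, so dnLEF1 replicate 1 lay among the GFP libraries (log2 fold change 0.65 ± 0.19, adjusted p = 0.0129). The call was lost without SW480 dnLEF1 replicate 4 (adjusted p = 0.0558). In SW620 it had 27.5, 23.5, 24.5 and 24.4 CPM in dnLEF1 libraries, against 34.6, 27.1, 28.9 and 26.8 CPM in GFP libraries, overlapping, and was not called (log2 fold change -0.23 ± 0.09, adjusted p = 0.145). SCAP, the escort protein, had 106, 101, 104 and 99.7 CPM in dnLEF1 libraries, against 96.7, 90.6, 93.03 and 85.98 CPM in GFP libraries in SW480, a small rise without overlap (log2 fold change 0.17 ± 0.06, adjusted p = 0.0383). That call was lost without SW480 dnLEF1 replicate 1, 2 or 3 or SW480 GFP replicate 2, 3 or 4 (adjusted p = 0.0570 to 0.114), and with no filter on low counts (adjusted p = 0.0638). In SW620 SCAP had 77.9, 87.1, 79.2 and 77.6 CPM in dnLEF1 libraries, against 87.8, 76.1, 72.5 and 77.6 CPM in GFP libraries, with overlap (log2 fold change 0.03 ± 0.07, adjusted p = 0.850). INSIG2, the second retention protein, had 14.7, 13.6, 14.4 and 15.1 CPM in dnLEF1 libraries, against 13.9, 14.3, 14.96 and 14.2 CPM in GFP libraries in SW620 (log2 fold change 0.01 ± 0.08, adjusted p = 0.967). In SW480 it had 27.1, 30.5, 30.4 and 36.5 CPM in dnLEF1 libraries, against 36.3, 32.3, 35.8 and 35.6 CPM in GFP libraries, and was not called (log2 fold change -0.17 ± 0.09, adjusted p = 0.137).

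Of the 18 sterol synthesis enzymes, 7 fell in SW620 (38.9%, beside 2.43% of all genes) and 0 rose (beside 6.03%), with 17 log2 fold changes below 0. In SW480, 8 rose (44.4%, beside 24.2% of all genes) and 0 fell (beside 24.4%), with all 18 above 0. The median log2 fold change of the 18 was -0.22 in SW620 and 0.32 in SW480. No member of this group rose in SW620 or fell in SW480 by DESeq2 or limma voom either, or at an unadjusted p below 0.05. The shares of all genes under these rules are not given here.

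The steps from acetyl-CoA to farnesyl diphosphate held the largest change of either line. HMGCS1 (chr5:43287470-43313512, minus strand), which makes HMG-CoA, had 78.9, 73.2, 76.8 and 72.4 CPM in dnLEF1 libraries, against 128, 111, 115 and 105 CPM in GFP libraries in SW620. Every dnLEF1 library was below every GFP library (log2 fold change -0.61 ± 0.06, adjusted p = 3.28e-05). In SW480 it had 55.7, 91.5, 85.7 and 99.8 CPM in dnLEF1 libraries, against 45.2, 68.4, 69.4 and 95.004 CPM in GFP libraries, a spread within each group wider than the difference (log2 fold change 0.26 ± 0.19, adjusted p = 0.269). IDI1, which isomerises isopentenyl diphosphate, fell in SW620 with 62.1, 54.5, 58.3 and 57.7 CPM in dnLEF1 libraries, against 72.8, 74.1, 74.8 and 68.3 CPM in GFP libraries and no overlap (log2 fold change -0.32 ± 0.06, adjusted p = 0.00367). The IDI1 call in SW620 was lost in a fit of all 16 libraries (adjusted p = 0.255). In SW480 it had 40.03, 57.7, 55.4 and 73.6 CPM in dnLEF1 libraries, against 36.2, 56.7, 52.8 and 66.6 CPM in GFP libraries, not called (log2 fold change 0.10 ± 0.17, adjusted p = 0.664).

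ACAT2, the cytosolic acetoacetyl-CoA thiolase, moved in opposite directions in the lines. ACAT2 had 104, 108, 101 and 107 CPM in SW620 dnLEF1 libraries, against 121, 131, 117 and 122 CPM in SW620 GFP libraries, without overlap (log2 fold change -0.23 ± 0.05, adjusted p = 0.0169). That call was lost without SW620 dnLEF1 replicate 3 or SW620 GFP replicate 2 (adjusted p = 0.0509 to 0.0883), and also lost in a fit of all 16 libraries (adjusted p = 0.214). ACAT2 had 125, 137, 129 and 179 CPM in SW480 dnLEF1 libraries, against 82.2, 107, 103 and 113 CPM in SW480 GFP libraries, again without overlap (log2 fold change 0.50 ± 0.12, adjusted p = 0.00276). Other genes of the tables, SOD2 and TCP1, share 36.3% of its exonic bases in GENCODE 44. The labels do not say how counting treated strand, so reads from shared bases cannot be assigned with certainty.

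MVD (chr16:88651935-88663161, minus strand), which decarboxylates mevalonate diphosphate, had the largest rise in SW480. MVD had 35.4, 36.7, 34.3 and 53.3 CPM in SW480 dnLEF1 libraries, against 18.1, 26.9, 26.2 and 28.2 CPM in SW480 GFP libraries. All dnLEF1 libraries exceeded all GFP libraries, and dnLEF1 replicate 4 stood far above the other 3 (log2 fold change 0.69 ± 0.15, adjusted p = 0.00181). In SW620 it had 24.1, 25.97, 21.5 and 20.2 CPM in dnLEF1 libraries, against 32.6, 26.6, 24.3 and 27.3 CPM in GFP libraries, overlapping (log2 fold change -0.28 ± 0.10, adjusted p = 0.111). PMVK, the kinase before it, rose in SW480 with 51.2, 34.4, 31.98 and 37.7 CPM in dnLEF1 libraries, against 30.9, 28.6, 26.7 and 24.98 CPM in GFP libraries and no overlap (log2 fold change 0.48 ± 0.13, adjusted p = 0.00632). Its SW620 value was close to 0 (log2 fold change 0.02 ± 0.09, adjusted p = 0.944). MVK, the first kinase, missed the test in SW620 (log2 fold change -0.33 ± 0.10, adjusted p = 0.0525), where dnLEF1 replicate 2 lay among the GFP libraries, and in SW480 (log2 fold change 0.25 ± 0.15, adjusted p = 0.189). MVK was called lower in SW620 by DESeq2 (adjusted p = 0.0196), limma voom (adjusted p = 0.0324) and edgeR with no filter on low counts (adjusted p = 0.0315). FDPS, which makes farnesyl diphosphate, was not called in SW620 (log2 fold change -0.13 ± 0.06, adjusted p = 0.263) or in SW480 (log2 fold change 0.23 ± 0.10, adjusted p = 0.0653), where its groups did not overlap. It shares 41.4% of its exonic bases with RUSC1-AS1.

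From squalene to lanosterol, FDFT1, squalene synthase, fell in SW620 with 146, 161, 149 and 154 CPM in dnLEF1 libraries, against 194, 182, 171 and 186 CPM in GFP libraries and no overlap (log2 fold change -0.26 ± 0.06, adjusted p = 0.00729). The FDFT1 call in SW620 was lost in a fit of all 16 libraries (adjusted p = 0.231). In SW480 it had 121, 146, 139 and 191 CPM in dnLEF1 libraries, against 88.9, 128, 124 and 139 CPM in GFP libraries, not called (log2 fold change 0.32 ± 0.14, adjusted p = 0.0714). SQLE, squalene epoxidase, had 53.8, 56.5, 55.9 and 54.5 CPM in dnLEF1 libraries, against 72.7, 58.5, 62.6 and 63.03 CPM in GFP libraries in SW620, with no overlap but no call (log2 fold change -0.22 ± 0.07, adjusted p = 0.0642), and in SW480 its fold change was near 0 (log2 fold change 0.01 ± 0.12, adjusted p = 0.932). DESeq2 called SQLE lower in SW620 (adjusted p = 0.0289). LSS, which closes the sterol ring, rose in SW480. LSS had 92.9, 118, 114 and 131 CPM in SW480 dnLEF1 libraries, against 59.3, 88.9, 77.7 and 88.1 CPM in SW480 GFP libraries, with every dnLEF1 library above every GFP library (log2 fold change 0.54 ± 0.12, adjusted p = 0.00227). In SW620 it was not called (log2 fold change -0.10 ± 0.06, adjusted p = 0.427).

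Among the enzymes that turn lanosterol into cholesterol, MSMO1, the C4 methyl sterol oxidase, moved in opposite directions in the lines. MSMO1 had 28.04, 22.2, 22.1 and 23.9 CPM in SW620 dnLEF1 libraries, against 37.003, 33.02, 31.6 and 30.1 CPM in SW620 GFP libraries, with no overlap (log2 fold change -0.45 ± 0.09, adjusted p = 0.00498). The MSMO1 call in SW620 was lost in a fit of all 16 libraries (adjusted p = 0.142). In SW480 it rose with 53.9, 88.3, 83.5 and 104 CPM in dnLEF1 libraries, against 37.99, 60.98, 56.2 and 70.9 CPM in GFP libraries, and dnLEF1 replicate 1 lay below all GFP libraries but replicate 1 (log2 fold change 0.55 ± 0.18, adjusted p = 0.0239). The SW480 call was lost by DESeq2 (adjusted p = 0.0740) and without SW480 dnLEF1 replicate 4 or SW480 GFP replicate 1 (adjusted p = 0.0660 to 0.0967). DHCR7 (chr11:71428193-71452868, minus strand), the last reductase of one branch, fell in SW620. DHCR7 had 110.0, 113, 112 and 121 CPM in SW620 dnLEF1 libraries, against 177, 158, 139.9 and 158 CPM in SW620 GFP libraries, with a clear gap (log2 fold change -0.47 ± 0.07, adjusted p = 0.000378). In SW480 it had 139, 159.7, 152 and 167 CPM in dnLEF1 libraries, against 104, 144, 130.3 and 152 CPM in GFP libraries, overlapping (log2 fold change 0.23 ± 0.10, adjusted p = 0.0790). NSDHL, which acts beside MSMO1, fell in SW620 with 21.9, 23.6, 22.6 and 22.1 CPM in dnLEF1 libraries, against 31.9, 28.7, 25.4 and 26.3 CPM in GFP libraries and no overlap (log2 fold change -0.32 ± 0.08, adjusted p = 0.0197). That call was lost without SW620 dnLEF1 replicate 1 or 4 or SW620 GFP replicate 2 (adjusted p = 0.0574 to 0.0659). In SW480 it had 60.7, 62.6, 59.6 and 76.999 CPM in dnLEF1 libraries, against 48.2, 57.7, 56.9 and 60.2 CPM in GFP libraries, not called (log2 fold change 0.23 ± 0.09, adjusted p = 0.0584).

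The remaining 3 that rose in SW480 each lost the call without single libraries. EBP, the sterol isomerase, had 99.3, 92.8, 92.7 and 132 CPM in dnLEF1 libraries, against 72.8, 89.5, 87.2 and 86.3 CPM in GFP libraries, without overlap (log2 fold change 0.32 ± 0.11, adjusted p = 0.0277), but lost its call without SW480 dnLEF1 replicate 4 or SW480 GFP replicate 1 (adjusted p = 0.0818 to 0.0850). TM7SF2, a C14 sterol reductase, had 54.5, 50.7, 49.5 and 60.01 CPM in dnLEF1 libraries, against 30.1, 46.2, 45.6 and 47.5 CPM in GFP libraries, without overlap (log2 fold change 0.35 ± 0.12, adjusted p = 0.0286), and lost its call without SW480 dnLEF1 replicate 4 (adjusted p = 0.0927). HSD17B7, the C3 ketoreductase, had 9.45, 15.03, 13.3 and 17.1 CPM in dnLEF1 libraries, against 6.04, 10.2, 10.3 and 10.8 CPM in GFP libraries, overlapping (log2 fold change 0.56 ± 0.19, adjusted p = 0.0237), and lost its call without SW480 dnLEF1 replicate 2 or 4 or SW480 GFP replicate 1 (adjusted p = 0.0547 to 0.0915). It has near-identical copies in the genome, HSD17B7P2 among them, and so may be undercounted. In SW620 none of these was called, with log2 fold changes of -0.13 (EBP), -0.02 (TM7SF2) and -0.07 (HSD17B7). CYP51A1, lanosterol demethylase, and SC5D, a desaturase, were called in neither line (log2 fold changes of -0.08 and -0.17 in SW620, and 0.32 and 0.01 in SW480). CYP51A1 also has near-identical pseudogene copies.

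STARD4 (chr5:111496033-111512590, minus strand), a carrier that moves cholesterol between membranes, was the only gene of the 34 called lower in both lines by the edgeR fit of each line. STARD4 had 38.6, 34.9, 36.9 and 41.6 CPM in SW620 dnLEF1 libraries, against 45.5, 47.5, 50.7 and 50.8 CPM in SW620 GFP libraries, with no overlap (log2 fold change -0.35 ± 0.07, adjusted p = 0.00515). The STARD4 call in SW620 was lost in a fit of all 16 libraries (adjusted p = 0.102). STARD4 had 85.8, 139, 141 and 139 CPM in SW480 dnLEF1 libraries, against 169, 196, 187 and 230.3 CPM in SW480 GFP libraries, again with no overlap and with dnLEF1 replicate 1 far below the other 3 (log2 fold change -0.63 ± 0.14, adjusted p = 0.00153). NPC1L1, the intestinal cholesterol importer, was low. It had 2.23, 2.33, 2.67 and 2.49 CPM in dnLEF1 libraries, against 3.08, 2.58, 2.18 and 2.32 CPM in GFP libraries in SW620, overlapping (log2 fold change -0.06 ± 0.17, adjusted p = 0.892), and between 0 and 7 reads per library in SW480.

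In the fatty acid group, 2 of 9 genes fell in SW620 (22.2%, beside 2.43% of all genes). In SW480 2 rose (22.2%, beside 24.2% of all genes) and 1 fell (11.1%, beside 24.4%), with a median log2 fold change of 0.07, so the share that rose was near that of all genes. SCD (chr10:100347233-100364826, plus strand), which puts the double bond into stearate, had 539.8, 509, 588 and 617 CPM in dnLEF1 libraries, against 734, 701, 699 and 712 CPM in GFP libraries in SW620. No dnLEF1 library reached a GFP library (log2 fold change -0.34 ± 0.06, adjusted p = 0.00365). A near-identical copy, SCDP1, lies elsewhere in the genome. In SW480 its libraries overlapped fully, with 392, 511, 488 and 469 CPM in dnLEF1 libraries, against 364, 486, 449 and 553 CPM in GFP libraries (log2 fold change 0.01 ± 0.11, adjusted p = 0.952). FASN, fatty acid synthase, fell in SW620 with 530.4, 559, 564 and 544 CPM in dnLEF1 libraries, against 693, 645, 652 and 595 CPM in GFP libraries and no overlap (log2 fold change -0.23 ± 0.06, adjusted p = 0.0170). That call was lost without SW620 dnLEF1 replicate 1 or 4 or SW620 GFP replicate 2 (adjusted p = 0.0555 to 0.0591), and also lost in a fit of all 16 libraries (adjusted p = 0.0629). In SW480 FASN had 240.2, 321, 319.8 and 303 CPM in dnLEF1 libraries, against 285, 277, 274 and 299 CPM in GFP libraries, not called (log2 fold change 0.06 ± 0.08, adjusted p = 0.553).

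ELOVL6, which lengthens palmitate, had the smallest adjusted p of the 34 in SW480. ELOVL6 had 25.2, 27.7, 25.9 and 27.9 CPM in SW480 dnLEF1 libraries, against 20.3, 18.7, 17.9 and 21.8 CPM in SW480 GFP libraries, without overlap (log2 fold change 0.44 ± 0.08, adjusted p = 0.000486). In SW620 it was not called (log2 fold change -0.09 ± 0.11, adjusted p = 0.721). LPIN1, a phosphatidate phosphatase of glycerolipid synthesis, rose in SW480 with 31.4, 37.2, 40.8 and 37.7 CPM in dnLEF1 libraries, against 27.8, 28.7, 30.2 and 31.7 CPM in GFP libraries, where dnLEF1 replicate 1 lay just under GFP replicate 4 (log2 fold change 0.32 ± 0.08, adjusted p = 0.00669). ACSS2, which makes acetyl-CoA from acetate, fell in SW480. ACSS2 had 69.6, 79.4, 78.9 and 76.1 CPM in SW480 dnLEF1 libraries, against 81.7, 121, 118 and 99.2 CPM in SW480 GFP libraries, without overlap (log2 fold change -0.46 ± 0.11, adjusted p = 0.00243). In SW620 the ACSS2 groups did not overlap either, but the test was missed (log2 fold change -0.30 ± 0.10, adjusted p = 0.0832). ACSS2 was called lower in SW620 by DESeq2 (adjusted p = 0.0392) and by edgeR with no filter on low counts (adjusted p = 0.0486).

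The other fatty acid genes were called in neither line by the edgeR fit of that line. ACLY, which makes cytosolic acetyl-CoA from citrate, had log2 fold changes of -0.12 in SW620 and 0.18 in SW480. ACACA, acetyl-CoA carboxylase, had -0.20 and 0.00, and the desaturases FADS1 and FADS2 had -0.19 and 0.07, and 0.05 and 0.07, in the same lines. In SW620, ACACA and FADS1 were lower in dnLEF1 without overlap. Over the 34 genes in SW620, 15 were lower without overlap and 0 higher, where 5.17% of all genes were lower and 8.5% higher without overlap. In SW480, 10 were higher and 2 lower without overlap, where 21.7% of all genes were higher and 23.4% lower.

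**Figure D2:**
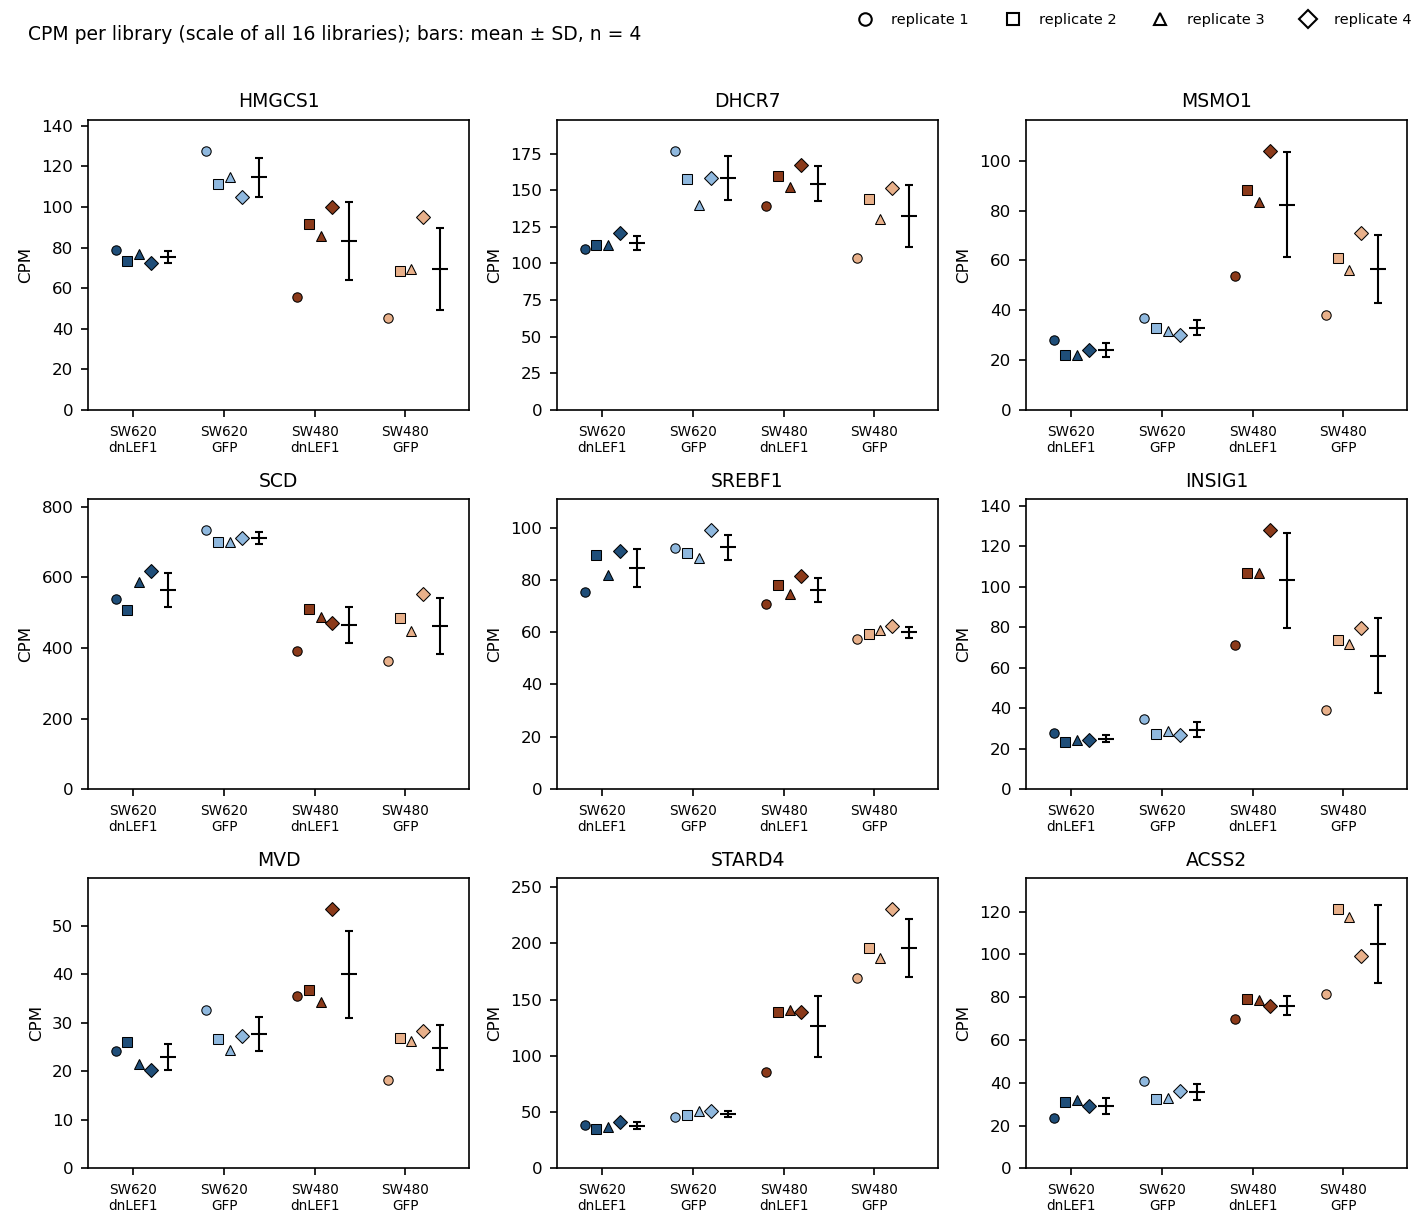
CPM of 9 genes in each library (symbols mark replicate numbers) with the mean ± SD of each group of 4. HMGCS1, DHCR7, MSMO1, SCD, STARD4 and ACSS2 (not called) sit lower in SW620 dnLEF1 than in any SW620 GFP library. In SW480 replicate 1 is often the lowest of its group.

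Summed over the 18 sterol synthesis genes, SW620 dnLEF1 libraries held 1167 to 1256 CPM and SW620 GFP libraries 1356 to 1559 CPM, with no overlap. SW480 dnLEF1 libraries held 1482 to 2093 CPM and SW480 GFP libraries 1119.8 to 1649.8 CPM, which overlapped. For the 9 fatty acid genes the sums were 1746 to 1918 CPM in SW620 dnLEF1 and 2095 to 2264 CPM in SW620 GFP, and 1562 to 1879 CPM in SW480 dnLEF1 and 1506 to 1832 CPM in SW480 GFP. For the 5 SREBP genes they were 311 to 355 CPM in SW620 dnLEF1 and 359.9 to 387 CPM in SW620 GFP, and 386 to 496 CPM in SW480 dnLEF1 and 327 to 423 CPM in SW480 GFP. Both sums separated the SW620 groups and overlapped in SW480. The SD of the sterol sum was 40.5 in SW620 dnLEF1, 85.7 in SW620 GFP, 254 in SW480 dnLEF1 and 223 in SW480 GFP.

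The wider spread in SW480 was shared between genes. Of the 18 sterol genes, dnLEF1 replicate 4 was the highest of its group for 17 and dnLEF1 replicate 1 the lowest for 12, and GFP replicate 4 was the highest for 14 and GFP replicate 1 the lowest for 17. SW480 dnLEF1 replicate 4 also carried the least LEF1 of its group. Without dnLEF1 replicate 4 and GFP replicate 1, an alternative chosen after seeing the data, 8 genes rose and 3 fell in SW480. The median log2 fold change was 0.09. With all libraries, 24.2% of all genes rose and 24.4% fell in SW480. The shares without these libraries are not given here, so an excess of rises among the genes is not shown for that fit. The calls lost in it were those of EBP, HSD17B7, INSIG1, MSMO1 and TM7SF2, and INSIG2 was gained as lower. Without SW620 GFP replicate 3, 10 genes fell in SW620, as many as with it. In a fit of all 16 libraries, which shares the spread of both lines, 4 genes fell in SW620 (HMGCS1, DHCR7, SCD and NSDHL), and the calls of ACAT2, FASN, FDFT1, IDI1, MSMO1 and STARD4 were lost. In SW480 the same fit called 18 higher, against 13 in the fit of that line alone, adding ACLY, CYP51A1, FDFT1, FDPS and NSDHL.

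**Figure D3:**
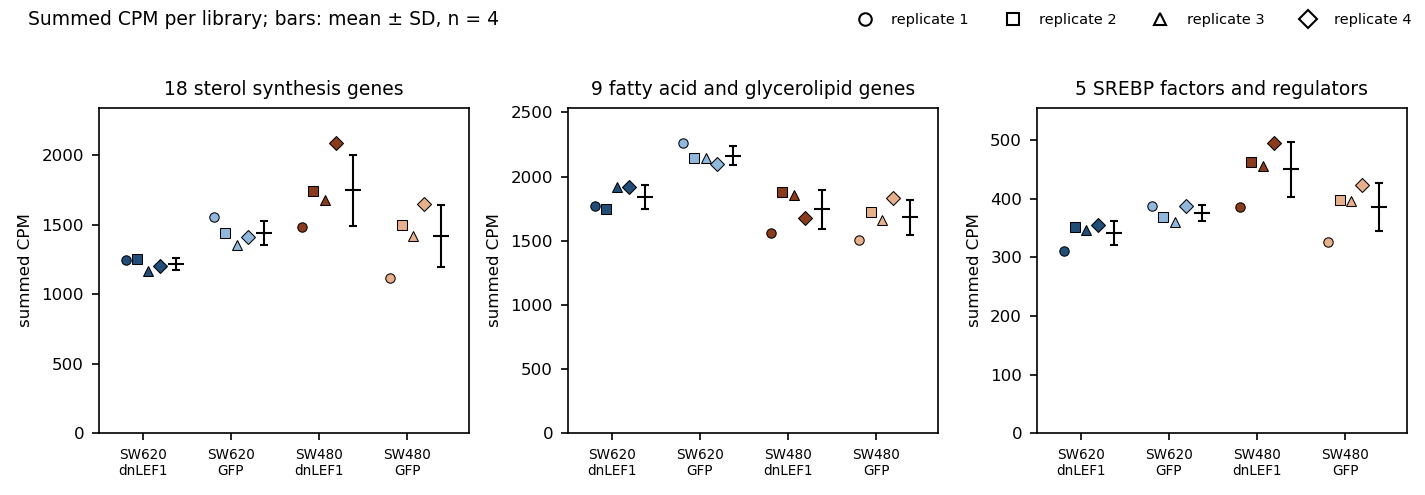
Summed CPM of the sterol synthesis genes, the fatty acid and glycerolipid genes and the SREBP factors in each library, with the mean ± SD of each group of 4. The SW620 groups separate for all 3 sums (sterol 1167 to 1256 in dnLEF1 against 1356 to 1559 in GFP), and the SW480 groups overlap.

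The difference between the lines was tested directly, as the dnLEF1 effect in SW620 minus that in SW480. It was called negative for 18 of 34 genes and positive for 0, where 12.3% of 14926 genes were negative and 16.2% positive (28.5% either way). DESeq2 and limma voom also called 0 positive, and 0 were positive at an unadjusted p below 0.05. The shares of all genes under these rules are not given here. The median difference was -0.40, beside 0.02 over all genes. All 18 sterol synthesis genes had a difference below 0 and 12 were called. MSMO1 had the largest negative one (difference -0.998 ± 0.24, adjusted p = 0.00342), then MVD (difference -0.97 ± 0.20, adjusted p = 0.00111), INSIG1 (difference -0.88 ± 0.25, adjusted p = 0.0117) and HMGCS1 (difference -0.87 ± 0.23, adjusted p = 0.00743). The smallest adjusted p values were those of DHCR7 (difference -0.70 ± 0.13, adjusted p = 0.000434), ACAT2 (difference -0.72 ± 0.14, adjusted p = 0.000523) and SREBF1 (difference -0.48 ± 0.09, adjusted p = 0.000557). LSS (difference -0.63 ± 0.15, adjusted p = 0.00321), FDFT1 (difference -0.58 ± 0.17, adjusted p = 0.0129), NSDHL (difference -0.54 ± 0.13, adjusted p = 0.00297), ELOVL6 (difference -0.53 ± 0.14, adjusted p = 0.00700) and ACLY (difference -0.30 ± 0.09, adjusted p = 0.0208) were also called. STARD4, lower in both lines, had a difference of 0.28 ± 0.17 that was not called (adjusted p = 0.239). LEF1 itself was far lower in SW620 than in SW480, in dnLEF1 and in GFP libraries. Its rise with dnLEF1 was larger in SW620 (difference 0.53 ± 0.19, adjusted p = 0.0431). The line and its LEF1 level cannot be told apart in these differences.

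The other 6 calls were lost without single libraries. That of LPIN1 was lost without SW620 GFP replicate 1 (adjusted p = 0.0601). EBP lost its call without SW620 dnLEF1 replicate 3 or 4, SW620 GFP replicate 1 or 2, SW480 dnLEF1 replicate 4 or SW480 GFP replicate 1 (adjusted p = 0.0590 to 0.0854), and FDPS without SW620 dnLEF1 replicate 3 or 4, SW620 GFP replicate 1 or 2, SW480 dnLEF1 replicate 4 or SW480 GFP replicate 1 (adjusted p = 0.0597 to 0.0770). MVK lost it without SW620 dnLEF1 replicate 1, 3 or 4, SW620 GFP replicate 1 or 4, SW480 dnLEF1 replicate 4 or SW480 GFP replicate 1 (adjusted p = 0.0539 to 0.0930). PMVK lost it by limma voom (adjusted p = 0.0555) and without SW620 dnLEF1 replicate 3 or 4, SW620 GFP replicate 1, 2 or 4, SW480 dnLEF1 replicate 1 or 4 or SW480 GFP replicate 2, 3 or 4 (adjusted p = 0.0595 to 0.108). FASN lost it without SW620 dnLEF1 replicate 1 or 4, SW620 GFP replicate 1, 2 or 3, SW480 dnLEF1 replicate 2, 3 or 4 or SW480 GFP replicate 1, 2 or 3 (adjusted p = 0.0554 to 0.0893).

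Chromosome neighbours were examined to see whether a gene moved with its stretch of the genome. Each gene was set beside the median log2 fold change of the 10 nearest tested genes on either side. In SW620, 31 of the 34 lay below their neighbours' median, with a median difference of -0.21, and in SW480 26 of 33 lay above theirs, with a median difference of 0.26. INSIG1 and CYP51A1 in SW620 sat on chromosome 7 among genes that were higher, with neighbour medians of 0.25 and 0.34 and 19 of 20 neighbours above 0 for each, while their own log2 fold changes were -0.23 and -0.08. STARD4 in SW480 was the opposite case. Its fold change of -0.63 stood beside a neighbour median of -0.51, with 18 of 20 neighbours below 0. In SW620 the neighbours of STARD4 had a median of -0.02 beside its own -0.35. FASN in SW480, at 0.06, sat among neighbours with a median of 0.27.

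**Figure D4:**
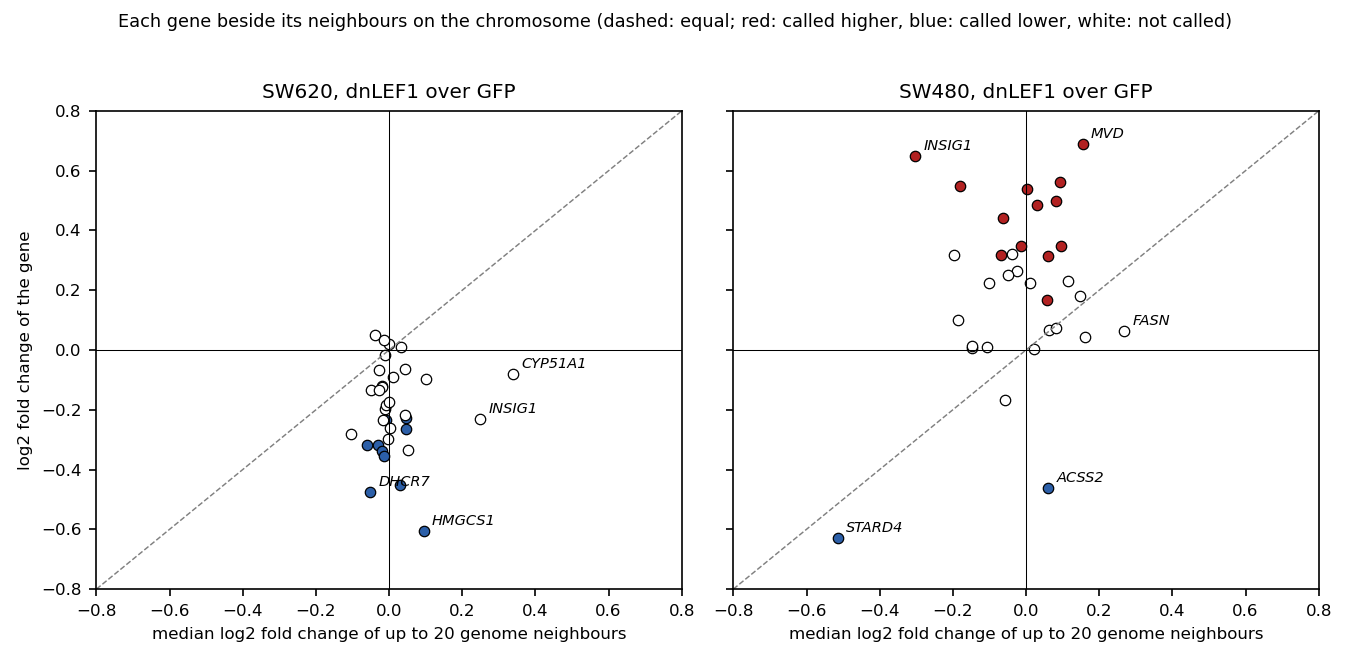
Log2 fold change of each gene (vertical axis) against the median of up to 20 genome neighbours (horizontal axis) in SW620 (left) and SW480 (right), with the dashed line marking equality. Nearly all points lie below the line in SW620 and most above it in SW480, and STARD4 in SW480 lies close to the line.

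In the GFP controls the lines differed at nearly every gene. Between SW620 GFP and SW480 GFP, 18 of 34 genes were higher and 14 lower in SW620, where 37.7% of 14350 genes were higher and 40.3% lower (78% either way). Without overlap, 15 were higher and 13 lower, where 35.1% and 37.4% of all genes were. These GFP libraries also serve in the dnLEF1 comparisons. FASN had 693, 645, 652 and 595 CPM in SW620 GFP and 285, 277, 274 and 299 CPM in SW480 GFP (log2 fold change 1.18 ± 0.06, adjusted p = 1.96e-10). SREBF1 was higher in SW620 (log2 fold change 0.62 ± 0.06, adjusted p = 1.42e-07), as were HMGCS1 (log2 fold change 0.72 ± 0.15, adjusted p = 0.000622), SCD (log2 fold change 0.61 ± 0.10, adjusted p = 3.58e-05) and FDFT1 (log2 fold change 0.60 ± 0.10, adjusted p = 9.49e-05). NPC1L1 had 41 to 68 reads per library in SW620 GFP and 0 to 7 in SW480 GFP (log2 fold change 4.09 ± 0.40, adjusted p = 2.78e-07).

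LPIN1 was the most reduced in SW620, with 5.99, 4.89, 4.69 and 3.98 CPM in SW620 GFP and 27.8, 28.7, 30.2 and 31.7 CPM in SW480 GFP (log2 fold change -2.61 ± 0.11, adjusted p = 2.48e-11). STARD4 (log2 fold change -2.02 ± 0.09, adjusted p = 2.53e-11), CYP51A1 (log2 fold change -1.59 ± 0.12, adjusted p = 1.57e-08), ACSS2 (log2 fold change -1.56 ± 0.11, adjusted p = 9.35e-09) and FADS2 (log2 fold change -1.30 ± 0.10, adjusted p = 2.14e-08) were lower in SW620 too. So were both retention proteins, INSIG2 (log2 fold change -1.29 ± 0.07, adjusted p = 5.16e-10) and INSIG1 (log2 fold change -1.17 ± 0.17, adjusted p = 1.92e-05). SREBF2 (log2 fold change 0.27 ± 0.11, adjusted p = 0.0356) was higher and SCAP (log2 fold change -0.23 ± 0.07, adjusted p = 0.00528) lower by less. MVD and HSD17B7 were not called. The genes were also set beside their chromosome neighbours, whose medians ran from -0.84 to 0.96, without a test. HMGCS1 sat beside a neighbour median of 0.96 (16 of 20 above 0), SREBF2 beside 0.49 (17 of 20) and CYP51A1 beside -0.84 (19 of 20 below 0). SREBF1 and FDFT1, higher in SW620, sat beside medians of -0.23 and -0.33. Of the 34 genes, 21 lay below their neighbours' median and 13 above. Among the small differences, DHCR7 lost its call without SW620 GFP replicate 1, 2 or 4 or SW480 GFP replicate 1 or 3 (adjusted p = 0.0549 to 0.0823), SREBF2 without SW620 GFP replicate 2 or 4 or SW480 GFP replicate 1 or 3 (adjusted p = 0.0512 to 0.0779), ACACA without SW620 GFP replicate 3 or SW480 GFP replicate 2 or 3 (adjusted p = 0.0616 to 0.109), ELOVL6 without SW480 GFP replicate 2 or 3 (adjusted p = 0.0695 to 0.0783) and ACLY without SW480 GFP replicate 3 (adjusted p = 0.0521).

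**Figure D5:**
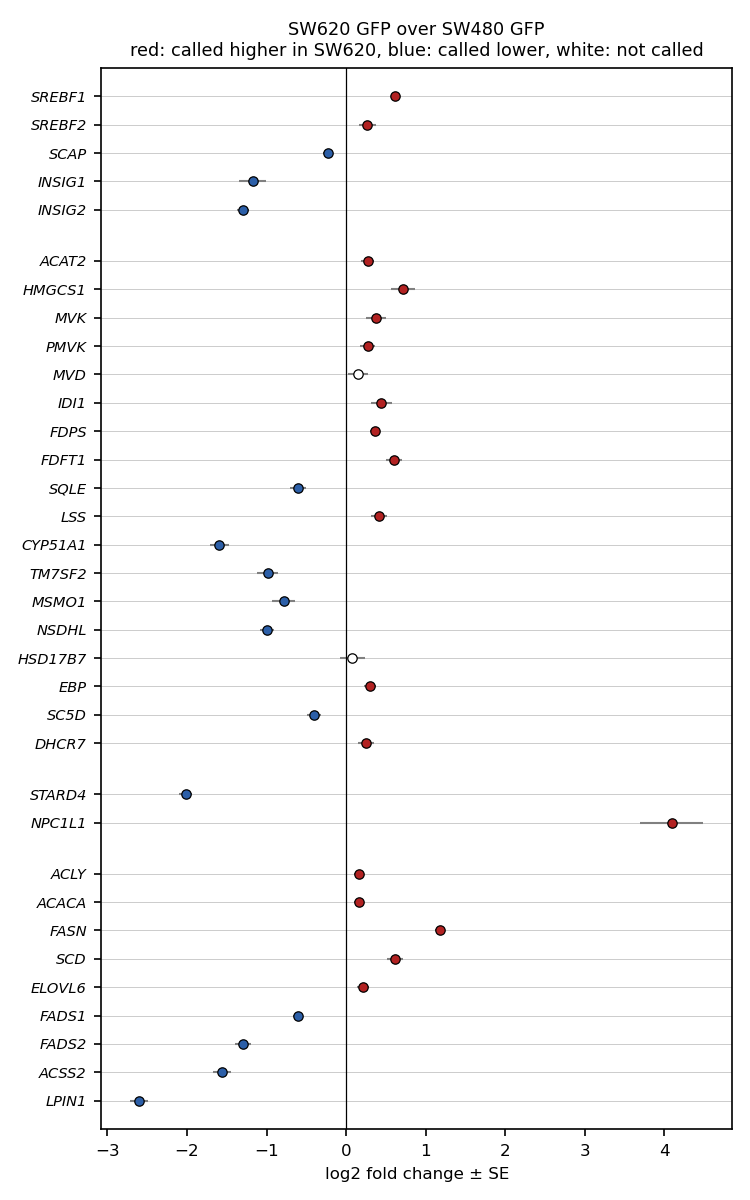
Log2 fold changes (points, ± SE) of SW620 GFP over SW480 GFP for the 34 genes, with red for genes called higher in SW620 and blue for lower. Of the 34 points, 18 are red and 14 blue, with LPIN1 at -2.61 and NPC1L1 at 4.09 at the ends.

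Other genes of lipid metabolism were counted from 6 lists of 72 genes, of which 69 were tested. In SW620, 1 rose (1.45%, beside 6.03% of all genes) and 2 fell (2.9%, beside 2.43%). ACSL5, an acyl-CoA synthetase, rose (log2 fold change 1.08 ± 0.16, adjusted p = 0.000577), and ETFDH of fatty acid oxidation was among those that fell (log2 fold change -0.33 ± 0.09, adjusted p = 0.0259). In SW480, 19 rose (27.5%) and 14 fell (20.3%), beside 24.2% and 24.4% of all genes. Sterol handling and LXR genes rose for 8 of 13 and fell for 2. SOAT1, which esterifies cholesterol (log2 fold change 0.54 ± 0.06, adjusted p = 5.29e-06), SCARB1, a lipoprotein receptor (log2 fold change 0.66 ± 0.09, adjusted p = 2.26e-05), and ABCG1, a sterol exporter (log2 fold change 1.54 ± 0.22, adjusted p = 4.78e-05), rose. Other fatty acid synthesis genes rose for 4 of 19 and fell for 3, led by SCD5 (log2 fold change 1.10 ± 0.07, adjusted p = 2.54e-08), ACSL5 (log2 fold change 1.29 ± 0.10, adjusted p = 1.39e-07) and ACSL1, which fell (log2 fold change -0.81 ± 0.08, adjusted p = 1.21e-06). Of 8 glycerolipid genes 2 rose and 1, GPAM, fell (log2 fold change -0.67 ± 0.10, adjusted p = 5.60e-05). Fatty acid oxidation genes rose for 4 of 15 and fell for 5, with PPARD lower (log2 fold change -0.46 ± 0.06, adjusted p = 4.28e-05). Of 6 other sterol and isoprenoid genes 0 rose and 2 fell (LBR and GGPS1), and of 8 SREBP processing genes RNF145 rose and MBTPS2 fell. The difference between the lines was called positive for 10 of the 69 (14.5%, beside 16.2% of all genes) and negative for 15 (21.7%, beside 12.3%). In SW620 GFP over SW480 GFP 32 were higher (46.4%, beside 37.7%) and 24 lower (34.8%, beside 40.3%).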

How the data were processed

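RNA-seq gene counts were analysed for 16 libraries, 4 in each of 4 groups, assigned from the sample titles. The values are whole-number counts of reads per gene, deposited by the authors without normalization. Per the submitters' processing notes, Trimmomatic, TopHat2, HTSeq and DESeq2 and the build hg38 were used. No source used here gives their versions, the annotation or how strand was set. The 5 summary lines of each table name no gene and were left out (20.0% to 24.3% of the total in 15 libraries, 50.5% in SW620 GFP replicate 3).

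Each comparison used edgeR 4.0.16 (R 4.3.3) with TMM scaling, filterByExpr and the quasi-likelihood test on the libraries of its groups, adjusted by Benjamini-Hochberg over all genes tested and called below 0.05. The difference between lines came from 1 fit of 16 libraries. Each SE is the absolute log2 fold change divided by the square root of the F statistic of that test. Values per library are CPM on the TMM scale of all 16 libraries. DESeq2 1.42.0, limma 3.58.1 (voom), RLE scaling, no filter, a fit of all 16 libraries, the replicate number as a block and leaving out each library were tried. The fitting code was tested on simulated data with known fold changes. The 34 genes and all lists were chosen with earlier results of these data known. Full values were given for the 5 SREBP genes, for up to 10 called genes with the smallest adjusted p per comparison and for genes called in both lines, and of the other lists for up to 3 called genes. Some genes were also given in full for comparison after their values were seen. Libraries of 1 group differed from each other by more than sampling noise (chi-square per degree of freedom 1.96 to 21.0), so none was counted as a repeat of another. The closest pairs were replicates 2 and 3 of SW480 GFP (1.96) and replicates 2 and 3 of SW480 dnLEF1 (2.27). Every other pair had 4.21 or more. The tests treated all libraries of a group as equally separate, which may not hold for these pairs. Gene positions are from GENCODE 44 and promoters from RefSeq. The values of 1 gene of the other lipid lists are not reported here.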

Additional observations from a re-analysis of the deposited data

Results flagged for a closer look

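In 14 of 136 combinations of a gene and a group, 1 library stood apart from the other 3, its gap to the nearest being over Dixon's critical share of the whole range. Chance sets apart about 1 in 20 groups. INSIG2 had 32.3 CPM in SW480 GFP replicate 2, against 35.6 to 36.3 CPM in the other 3. MVK had 22.6 CPM in SW620 dnLEF1 replicate 2, against 16.5 to 17.1 CPM in the other 3. MVK had 12.4 CPM in SW480 GFP replicate 1, against 19.1 to 19.7 CPM in the other 3. MVD had 53.3 CPM in SW480 dnLEF1 replicate 4, against 34.3 to 36.7 CPM in the other 3. FDPS had 241 CPM in SW480 dnLEF1 replicate 4, against 174 to 185 CPM in the other 3. FDPS had 147 CPM in SW480 GFP replicate 1, against 170.5 to 174 CPM in the other 3. TM7SF2 had 30.1 CPM in SW480 GFP replicate 1, against 45.6 to 47.5 CPM in the other 3. HSD17B7 had 6.04 CPM in SW480 GFP replicate 1, against 10.2 to 10.8 CPM in the other 3. EBP had 132 CPM in SW480 dnLEF1 replicate 4, against 92.7 to 99.3 CPM in the other 3. STARD4 had 85.8 CPM in SW480 dnLEF1 replicate 1, against 139 to 141 CPM in the other 3. ACACA had 151 CPM in SW620 GFP replicate 3, against 141 to 142 CPM in the other 3. FADS1 had 208 CPM in SW480 dnLEF1 replicate 4, against 238 to 241 CPM in the other 3. FADS2 had 18.1 CPM in SW620 dnLEF1 replicate 1, against 20.4 to 20.8 CPM in the other 3. FADS2 had 37.8 CPM in SW480 GFP replicate 1, against 49.6 to 51.2 CPM in the other 3. Of the 14, 5 were SW480 GFP replicate 1 and 4 were SW480 dnLEF1 replicate 4.

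For 18 genes the dnLEF1 effect differed between SW620 and SW480 by the test of that difference (edgeR, adjusted p below 0.05). The line and its LEF1 level cannot be told apart in that test. The differences, SW620 minus SW480 on the log2 scale, were SREBF1 (-0.48), INSIG1 (-0.88), ACAT2 (-0.72), HMGCS1 (-0.87), MVK (-0.58), PMVK (-0.46), MVD (-0.97), FDPS (-0.36), FDFT1 (-0.58), LSS (-0.63), MSMO1 (-0.998), NSDHL (-0.54), EBP (-0.44), DHCR7 (-0.70), ACLY (-0.30), FASN (-0.30), ELOVL6 (-0.53), LPIN1 (-0.57).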

How the results depend on the processing

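No call reversed its direction in any alternative. The counts in this section stand without the share of all genes called under the same setting. Their changes may not be particular to the 34 genes. The value changed sign without being called in 49 of 2195 values. In the fit of all 16 libraries 4 of the 34 genes were lower in SW620, against 10 in the fit of that line alone. In SW480 the fit of all 16 libraries gave 18 higher, against 13. Without SW480 GFP replicate 1 and SW480 dnLEF1 replicate 4, chosen after seeing the data, 8 were higher in SW480, with a median log2 fold change of 0.09, and 13 had a negative difference between lines, with a median of -0.29; the cause was not tested. Leaving out 1 library at a time gave 8 to 11 lower and 0 higher in SW620 (median -0.22 to -0.15), 9 to 18 higher and 2 to 3 lower in SW480 (0.16 to 0.30), 12 to 21 negative and 0 positive differences (-0.47 to -0.30), and 13 to 18 higher and 14 lower between the GFP groups (0.14 to 0.21). DESeq2, limma voom, RLE scaling and no filter gave 11 to 14 lower in SW620, 13 to 16 higher in SW480 and 17 to 21 negative differences. Calls held in every alternative for 3 of 10 genes in SW620 (DHCR7, HMGCS1 and SCD), 9 of 15 in SW480, 12 of 18 differences and 27 of 32 between the GFP groups. NPC1L1 is limited by depth.

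With the replicate number as a block, 18 genes were lower in SW620, 19 were higher in SW480 and 23 had a negative difference between lines. The share of all genes called with the block is not given here. The added calls were those of ACACA, ACSS2, FADS1, INSIG1, MVD, MVK, SQLE and SREBF2 (adjusted p = 0.00510) in SW620, and of CYP51A1 (adjusted p = 0.00184), DHCR7, FDFT1, FDPS, HMGCS1 (adjusted p = 0.0101) and NSDHL in SW480. Same-numbered libraries correlated by 0.53, -0.07, 0.40 and 0.37 in SW620, where numbers 1, 3 and 4 each correlated best with their own, and by 0.32, -0.08, -0.23 and -0.07 in SW480. Not every pair was over 0.1 and the labels name no shared batch, so a pairing by number was not established.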
